A study of Mus musculus with 8 samples.

Results

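Genes of cholinergic transmission were followed here through RNA captured with Lhx1os in mouse motor neurons. They were found by symbol: Chat, Slc18a3, Slc5a7, Ache, Slc10a4, Agrn, Calca and Calcb, which are 8 of the 55471 gene rows in the deposited tables. The rule that finds them uses names, not measured values. The cells were motor neurons differentiated from HBG3 mouse embryonic stem cells, a line with an HB9::GFP reporter, in which the promoter of Hb9 (Mnx1) drives a green fluorescent protein. The labels name 1 stem cell line, and their protocols describe no sort for the reporter. After papain dissociation the cells were plated and kept for 3 further days in N2B27 medium with BDNF, CNTF and GDNF, and this holds for all groups. Input was RNA before capture, ODD and EVEN were captures with 2 sets of biotinylated antisense probes of 20 nt against the long noncoding RNA Lhx1os, and LacZ was a capture with probes against the bacterial LacZ mRNA. Each group had 2 libraries, 1 from each of 2 independent experiments, which the labels number as replicates and call a batch. With that number of libraries, the spread measured is that between 2 experiments.

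Acetylcholine is the transmitter of spinal motor neurons. Choline is taken up into the axon terminal, turned into acetylcholine in the cytosol, loaded into vesicles, released onto muscle, and broken down in the cleft. The muscle side of the synapse is organised by proteins that the nerve secretes, among them agrin, and motor neurons also release peptides of the calcitonin gene family.

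Chat, choline acetyltransferase, makes the transmitter, and Slc18a3, the vesicular acetylcholine transporter, loads it into vesicles. Both sit in what is known as the cholinergic locus. In GENCODE M21 on GRCm38, Chat (ENSMUSG00000021919) runs from 32465989 down to 32408203 on the minus strand of chromosome 14. Slc18a3 (ENSMUSG00000100241) is a single exon from 32464850 to 32462438 on the same strand, and starts 1139 bp downstream of Chat. It lies wholly between the first and the second merged exon of Chat, with 0 bp of exon overlap. An antisense RNA, Gm2990, starts 192 bp from the start of Slc18a3 and overlaps 948 bp of the Chat gene. Unspliced Chat RNA across this stretch has the same letters and strand as Slc18a3 mRNA, so gene counts cannot tell those reads apart.

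**Figure D1:**
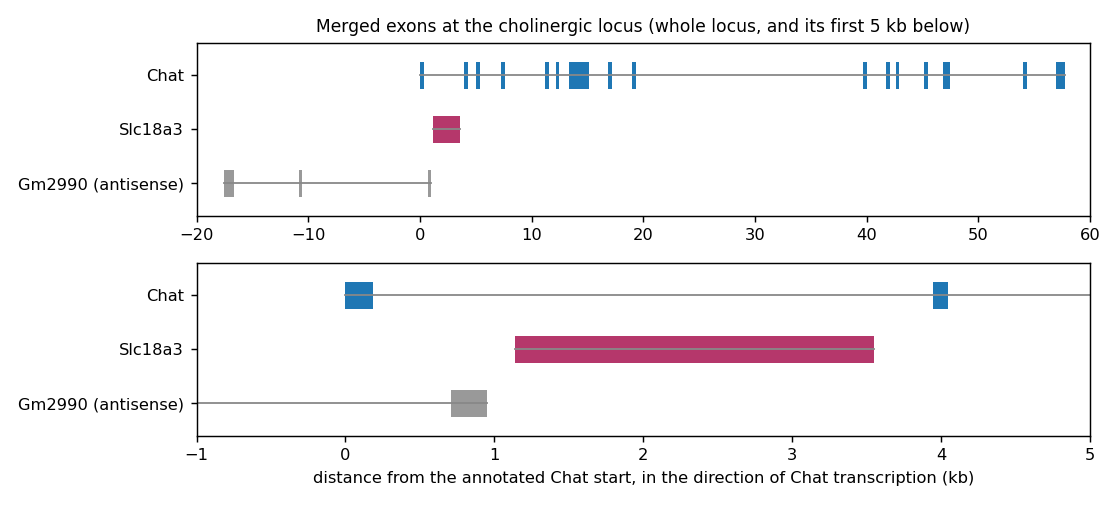
Merged exons (boxes) of Chat, Slc18a3 and the antisense gene Gm2990 against the distance in kb from the annotated Chat start, for the whole locus (top) and its first kilobases (bottom). The single exon of Slc18a3 sits between the first and second boxes of Chat, and the first exon of Gm2990 sits just upstream of Slc18a3.

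Slc5a7, the high-affinity choline transporter, supplies the substrate. Slc5a7 (ENSMUSG00000023945) lies on chromosome 17 from 54273590 to 54299034, minus strand. Chat, Slc18a3 and Slc5a7 were higher in every group of the second experiment, as were Ache, Slc10a4 and Calca. The promoters of Chat, Slc18a3 and Slc5a7 are shown because these genes make the transmitter, load it or take up its substrate. Each is 300 bases from RefSeq on GRCm38.p6, 250 before the transcript start and 50 after it, read 5′ to 3′ on the minus strand. Capitals mark the motif CANNTG, the core bound by basic helix-loop-helix factors. In order, they are chr14:32465860-32466159, chr14:32464801-32465100 and chr17:54298985-54299284.
Chat: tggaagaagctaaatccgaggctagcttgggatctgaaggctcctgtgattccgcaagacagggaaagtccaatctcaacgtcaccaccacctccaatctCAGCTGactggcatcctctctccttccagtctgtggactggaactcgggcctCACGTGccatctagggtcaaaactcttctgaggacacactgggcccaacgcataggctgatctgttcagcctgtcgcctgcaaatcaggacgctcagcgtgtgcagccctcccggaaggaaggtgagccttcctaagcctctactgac
Slc18a3: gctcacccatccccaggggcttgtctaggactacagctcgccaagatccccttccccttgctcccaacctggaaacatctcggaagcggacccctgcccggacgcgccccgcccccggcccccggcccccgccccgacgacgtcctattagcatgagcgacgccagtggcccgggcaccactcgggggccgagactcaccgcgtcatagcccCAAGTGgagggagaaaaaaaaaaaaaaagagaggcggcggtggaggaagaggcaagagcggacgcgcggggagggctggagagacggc
Slc5a7: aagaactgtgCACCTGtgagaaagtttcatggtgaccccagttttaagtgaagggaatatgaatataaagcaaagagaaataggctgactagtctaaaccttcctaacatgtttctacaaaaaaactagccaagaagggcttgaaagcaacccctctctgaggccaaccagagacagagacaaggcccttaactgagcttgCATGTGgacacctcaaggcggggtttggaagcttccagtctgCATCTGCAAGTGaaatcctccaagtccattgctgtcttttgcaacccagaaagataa

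Chat has 2 such motifs, Slc18a3 has 1 and Slc5a7 has 4, and none of them overlap. Of 27025 RefSeq promoters of this length, 72.15% hold at least 1, so the motif is common. Searched on both strands, TAATTA, a core of homeodomain sites, and GGACAGC and TTCAGCACC, parts of the element bound by the repressor REST, had no match in the promoters of the 7 members with an entry. They were found in 5.31%, 6.59% and 0.359% of all promoters. A match, or its absence in this window, is a description of the letters only.

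Total counts ran from 7632775 in LacZ of experiment 1 to 24628435 in Input of experiment 1. Counts were scaled to CPM, their rate in the TMM-scaled library total, and levels between genes were compared in FPKM, which divides by gene length. The defining motor neuron factors were present, with Mnx1 between 48.3 and 69.0 CPM. Of 5 pluripotency markers, Pou5f1 and Dppa5a had 0 counts in every library. All 5 summed to 2.71 to 5.29 CPM in experiment 1 and 7.79 to 12.6 in experiment 2, and Esrrb, the one that passed the filter, was 1.88 to 3.902 times as high in experiment 2. The 7 markers of skeletal muscle summed to at most 1.54 CPM. Lhx1os itself had 2.27 and 2.97 CPM in Input, 2.06 and 2.44 after LacZ capture, 180 and 35.7 after ODD capture, and 150 and 25.4 after EVEN capture.

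All members except Calcb were well above the counting floor. In Input, mean FPKM was 44.8 for Agrn, 27.7 for Slc18a3, 17.6 for Slc10a4, 5.84 for Slc5a7, 5.66 for Calca, 5.23 for Chat, 3.32 for Ache and 0.219 for Calcb (n = 2). The order of Agrn, Slc18a3 and Slc10a4 was the same in each of the 8 libraries, and Calcb was the lowest in each. Across the 2 Input libraries, the ranges of Slc18a3 and Slc10a4 overlapped. Slc5a7, Calca, Chat and Ache overlapped between their 2 Input libraries and have no order beyond that spread. Among 16524 genes tested, Agrn ranked 917 and Slc18a3 ranked 1857 by Input FPKM, while Chat ranked 8256.

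Chat had 12.9 and 36.5 CPM in Input of experiments 1 and 2. In the pull-downs it had 21.1 and 58.0 CPM with LacZ, 22.3 and 64.6 with ODD, and 23.6 and 73.3 with EVEN. Experiment 2 was higher in every group, and within each experiment all 3 pull-downs were above Input. Across experiments the groups overlap, since Input of experiment 2 was above every pull-down of experiment 1.

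Slc18a3 had 49.2 and 85.3 CPM in Input, 41.4 and 70.4 after LacZ capture, 42.9 and 67.8 after ODD capture, and 47.0 and 63.5 after EVEN capture. Here the pull-downs were below Input in both experiments, the opposite side from Chat. The FPKM of Slc18a3 divided by that of Chat was 7.46 and 4.55 in Input. It was 3.82 and 2.37 after LacZ capture, 3.75 and 2.05 after ODD capture, and 3.88 and 1.69 after EVEN capture. Each pull-down was thus below the Input of its own experiment, LacZ included.

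**Figure D2:**
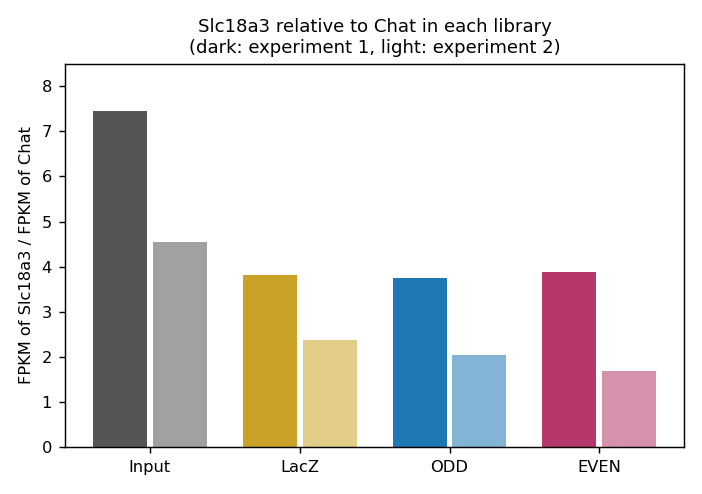
FPKM of Slc18a3 divided by FPKM of Chat in each library (linear axis from 0; 1 bar per library, dark for experiment 1 and light for experiment 2). Input bars are 7.46 and 4.55, and the 6 pull-down bars lie between 1.69 and 3.88.

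Slc5a7 had 15.9 and 50.2 CPM in Input, 14.8 and 47.8 after LacZ capture, 12.6 and 50.0 after ODD capture, and 14.9 and 51.2 after EVEN capture. The 2 experiments are far apart and the groups are nearly level within each. Ache, acetylcholinesterase, which ends the signal by splitting acetylcholine, lies on chromosome 5 from 137287519 to 137294466, plus strand. It had 12.3 and 18.6 CPM in Input, 11.9 and 19.7 after LacZ capture, 9.57 and 19.1 after ODD capture, and 10.7 and 17.0 after EVEN capture. Its groups overlap fully.

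Slc10a4 encodes a vesicle protein of the bile acid transporter family that is found in cholinergic neurons, and lies on chromosome 5 from 73006883 to 73012955, plus strand. Its level was 27.1 and 47.3 CPM in Input, 25.7 and 34.4 after LacZ capture, 23.2 and 36.6 after ODD capture, and 23.2 and 33.3 after EVEN capture. Like Slc18a3, it was below Input in each pull-down of each experiment.

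Agrn encodes agrin, the secreted proteoglycan that clusters acetylcholine receptors on muscle through Lrp4 and MuSK. It lies on chromosome 4 from 156165290 to 156197488, minus strand. Agrin is made in neural and non-neural splice forms, which a count per gene does not separate. Agrn had 500 and 340 CPM in Input, 390 and 548 after LacZ capture, 398 and 615 after ODD capture, and 403 and 593 after EVEN capture. In Input the first experiment was higher, and in all pull-downs the second was.

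Calca, on chromosome 7 from 114631478 to 114636357, minus strand, makes either calcitonin or the alpha form of calcitonin gene-related peptide (CGRP) by splicing, and gene counts sum both. It had 5.11 and 14.0 CPM in Input, 5.54 and 8.62 after LacZ capture, 5.55 and 9.61 after ODD capture, and 4.99 and 10.8 after EVEN capture. Calcb makes the beta form of CGRP and lies on the same chromosome from 114718643 to 114723365, plus strand. It had 4 and 8 counts in Input, 2 and 7 after LacZ capture, 1 and 2 after ODD capture, and 0 and 5 after EVEN capture. The 0 allows up to 0.252 CPM in that library (3 counts of its total, counting error only). Calcb did not pass the filter on low counts, so 7 of 8 members were tested.

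**Figure D3:**
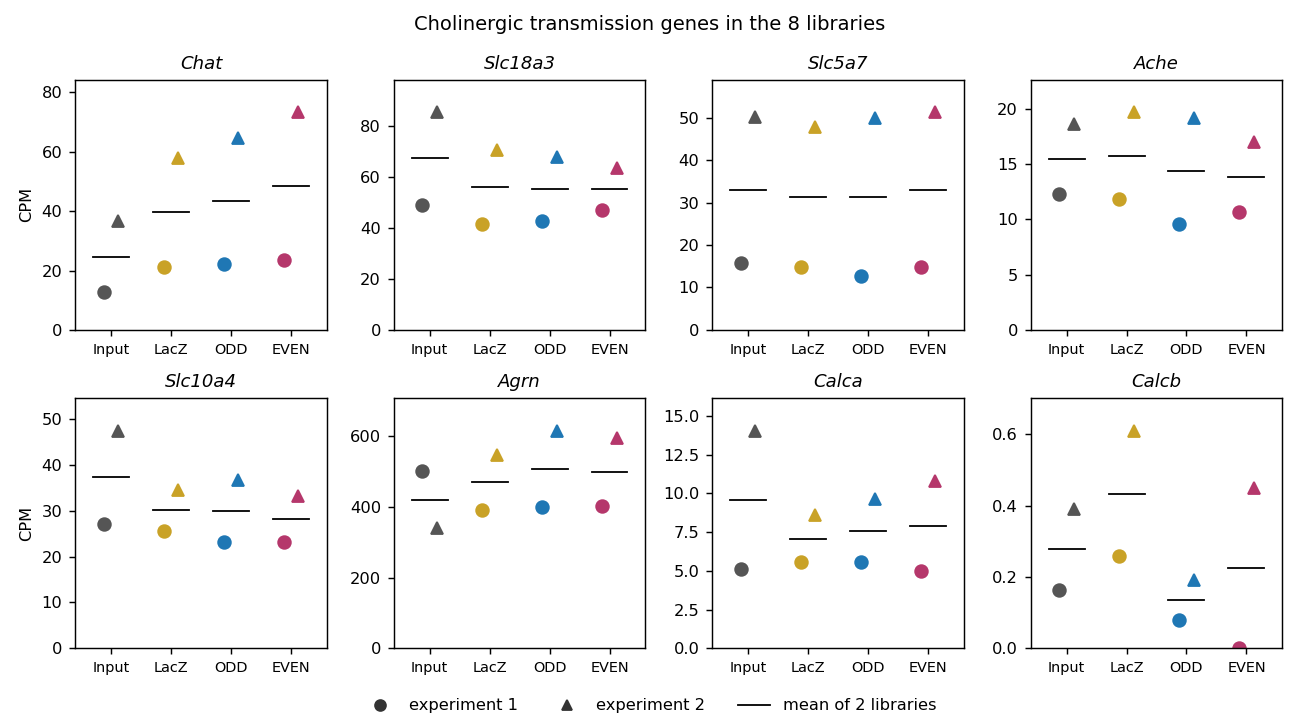
CPM of each member by group (linear axes from 0, 1 panel per gene with its own scale; circles are experiment 1, triangles experiment 2, lines the mean of 2 libraries). Triangles lie above circles in every group for 7 genes, and for Agrn in every group except Input.

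The first question was how the members differed between the 2 experiments. There is 1 library per group in each, so no test was made. On CPM + 0.5, the second experiment was higher in all 4 groups for 6 of the 7 tested members, all but Agrn, and for 24.9% of the genes tested. Slc5a7 was 3.10 to 3.85 times as high and Chat 2.70 to 3.06 times, and 1.22% of genes were at least 2-fold higher in all 4 groups. Calca was 1.51 to 2.59 times as high, Ache 1.495 to 1.95 times, Slc10a4 1.33 to 1.73 times and Slc18a3 1.35 to 1.73 times. The synthesis and uptake genes thus differed more between experiments than the transporter encoded inside Chat, in these libraries.

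Markers of cell types moved between the same experiments. Of 9 motor neuron markers, 3 are members. The other 6 summed to between 172 and 178 CPM in experiment 1 and between 239 and 265 in experiment 2, and 4 of the 6 were higher in all groups. Isl1, a LIM factor that acts on cholinergic genes, was 1.87 to 2.10 times as high in experiment 2, while Mnx1 was higher in Input only. The 7 glial markers summed to between 831 and 1122 CPM in experiment 1 and between 224 and 282 in experiment 2. Of these 7, 4 (Mbp, Olig1, Sox10 and S100b) were lower in all groups, with ratios from 0.0587 to 0.239. Gfap, at counts too low to be tested, was 1.32 to 2.74 times as high in experiment 2. Of 8 progenitor markers, 7 were lower in all groups of experiment 2. Of 7 general neuron markers, 4 were higher in all groups and 0 lower. They summed to 2176 to 2649 CPM in experiment 1 and 2584 to 3345 in experiment 2. Of 9 spinal interneuron markers, 5 were higher in all groups and 2 lower. Their sums were 68.9 to 91.7 CPM in experiment 1 and 76.5 to 107 in experiment 2, so a rise was not particular to motor neuron markers. Sensory neuron markers, relevant to Calca, summed to 6.32 to 9.22 CPM in experiment 1 and 6.62 to 8.90 in experiment 2. Their part in the members' difference was not tested, and in bulk RNA a change in the number of cells of a type and a change in RNA per cell cannot be told apart.

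**Figure D4:**
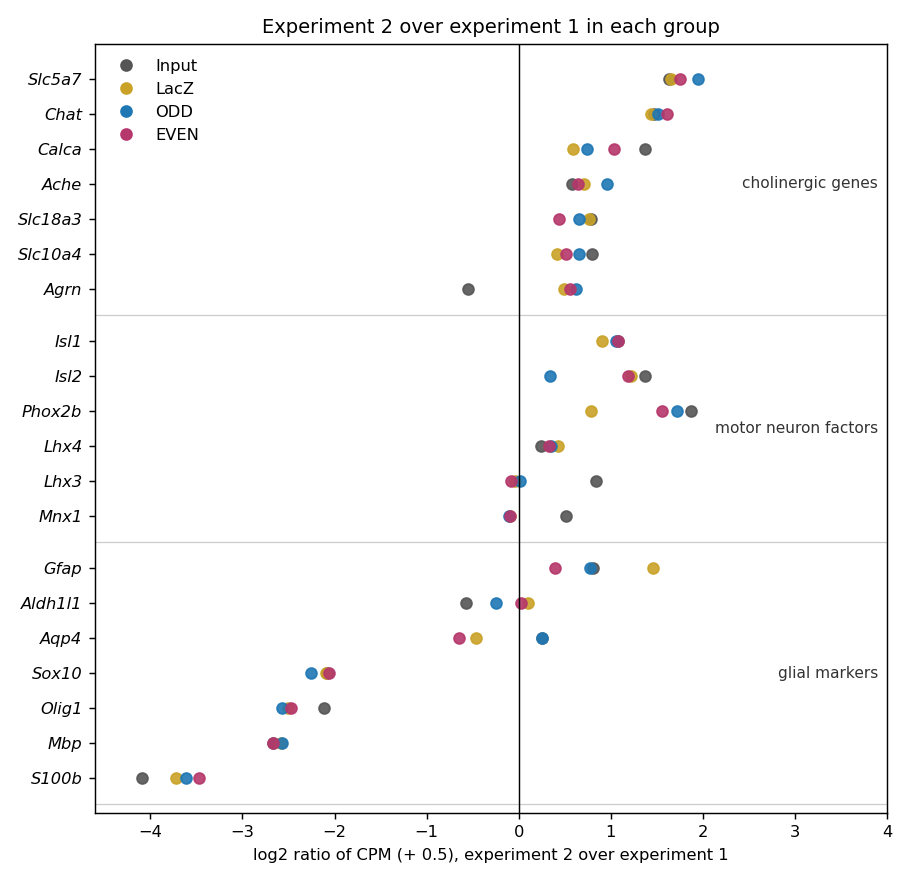
Log2 ratio of CPM + 0.5, experiment 2 over experiment 1, for the 7 tested members, 6 motor neuron transcription factors and 7 glial markers (1 dot per group, with no error because each dot is 1 library against 1). Of the 7 members, 6 lie right of 0 in all groups, Agrn lies left of 0 in Input only, and 4 glial markers lie far left.

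The second question, that of the study, was which RNAs were recovered with Lhx1os, from each pull-down set against Input. With group as the only term, edgeR's quasi-likelihood test called 0 of 7 members in ODD against Input, where 6.84% of genes were called. It called 0 of 7 in EVEN against Input, where 5.66% were called, and 0 of 7 in LacZ against Input, where 7.41% were called. No member had an unadjusted p under 0.05 in these comparisons, against 18.3%, 18.8% and 18.9% of all genes, and DESeq2, which called 8.34%, 7.54% and 7.74% of genes, also called 0 members. The median log2 difference of the tested members was -0.11, -0.16 and -0.07, beside -0.03, -0.0019 and -0.05 over all genes. In that fit the difference between experiments counts as spread, and the standard error was large for the genes that differed most between them.

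For Chat that fit gave a log2 difference from Input of 0.81 (ODD), 0.97 (EVEN) and 0.69 (LacZ probes), each with a standard error of 0.82. Its sign turned without the second ODD library (-0.15), without the second EVEN library (-0.07) and without the second LacZ library (-0.22). Within experiment 1, Chat was higher than Input by 0.77 in ODD, 0.85 in EVEN and 0.70 in LacZ on the log2 scale. Within experiment 2 the values were 0.81, 0.99 and 0.66. The 6 within-experiment differences thus have 1 direction and span a narrow range, but those of each experiment share 1 Input library.

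With the experiment as a block in the edgeR fit, Chat was called higher than Input in all 3 pull-downs. The log2 difference was 0.81 (standard error 0.12, adjusted p = 0.00365) in ODD, 0.94 (0.12, adjusted p = 0.00246) in EVEN and 0.69 (0.12, adjusted p = 0.00703) in LacZ. With this block 12.6%, 12.8% and 12.7% of genes were called higher, and 19.2%, 19.3% and 19.7% in either direction, so Chat was 1 of many. The 3 comparisons share the Input libraries. Leaving out any 1 library kept the ODD and EVEN calls. Without the first or the second ODD library the ODD call only just passed (0.80 in each case). The LacZ call was lost without the first LacZ library (0.63) and without the second (0.74). These fits leave 1 library in a group, and both calls stood near the threshold in them.

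**Figure D5:**
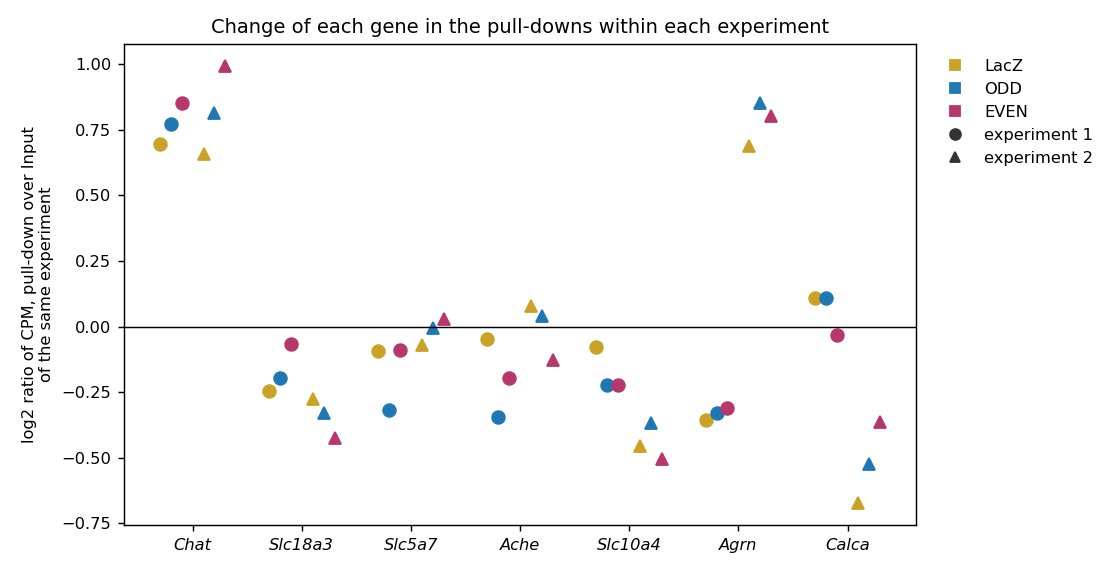
Log2 ratio of CPM in each pull-down over the Input of the same experiment for the 7 tested members (circles experiment 1, triangles experiment 2, colours the probe set; 1 library against 1). Chat lies between 0.66 and 0.99 in all 6, Slc18a3 and Slc10a4 lie below 0 in all 6, and Agrn lies below 0 in experiment 1 and above 0 in experiment 2.

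Slc18a3 was lower than Input by 0.07 to 0.42 on the log2 scale within experiments, in 6 of 6 pull-downs, and was called by neither fit. Here too the pull-downs of each experiment share 1 Input library. For Slc18a3 the fit without the block gave -0.28 in ODD, -0.28 in EVEN and -0.26 in LacZ (standard error 0.39). Slc10a4 was likewise lower in 6 of 6, by 0.08 to 0.50, and gave -0.32, -0.40 and -0.31 (standard error 0.36), not called. The block fit did not call Slc10a4 either with all libraries. Without the first Input library that fit called it lower in ODD (-0.44, edgeR adjusted p = 0.0409), EVEN (-0.51, adjusted p = 0.0255) and LacZ (-0.42, adjusted p = 0.0469), where 26.6%, 26.7% and 28% of genes were called. Ache and Calca had differences of both signs within experiments. Their fitted values in ODD, EVEN and LacZ were -0.11, -0.16 and 0.04 for Ache and -0.34, -0.28 and -0.42 for Calca, all below their standard errors of at least 0.44.

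Slc5a7 gave -0.08, 0.0013 and -0.07 with a standard error of 0.93. Its longest transcript is 40.9% G and C, and 12.5% of genes have a lower share. Slc18a3 is at 61.2%, with 97.6% of genes lower, and Ache at 58.7%, with 93.0% lower. When each library's trend on GC content was removed beside the block, edgeR called Slc5a7 lower than Input by -0.70 in ODD (adjusted p = 0.0105), -0.56 in EVEN (adjusted p = 0.0257) and -0.64 in LacZ (adjusted p = 0.0153). Under it the median over all genes lay between -0.15 and -0.13. With it Chat was at 0.88, 1.00 and 0.77, still called in all 3. With this fit 10.7%, 10.3% and 10.7% of genes were called higher and 16.9%, 15.8% and 16.8% lower.

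Agrn was lower than Input in experiment 1, by 0.36 in LacZ, 0.33 in ODD and 0.31 in EVEN on the log2 scale. In experiment 2 it was higher, by 0.69, 0.85 and 0.80. A fit with an interaction of pull-down and experiment, with the 3 kinds of pull-down as 1 group, gave a difference of 1.12 between experiments (standard error 0.13, edgeR adjusted p = 0.00333). That interaction was called for 6.86% of genes, and Agrn was the one member among the 7 called. Calca had -0.60 in the same fit (unadjusted p = 0.0366, edgeR adjusted p = 0.183). Input is 1 library in each experiment, so the interaction rests on those 2 libraries. The spread in this fit is that between the 3 kinds of pull-down within an experiment. Its standard errors and p-values thus hold no spread between Input libraries. The block fit over all libraries did not call Agrn. Without the first Input library it called Agrn higher in ODD (0.81, edgeR adjusted p = 0.00429), EVEN (0.79, adjusted p = 0.00519) and LacZ (0.71, adjusted p = 0.00586). Without the second Input library it called Agrn lower in LacZ (-0.40, edgeR adjusted p = 0.0361), where 24.1% of genes were called.

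The third question was whether Lhx1os probes recovered members beyond control probes. edgeR called 0 of 7 members in ODD against LacZ, in EVEN against LacZ and in the average of both against LacZ, and it called 0% of all genes in each. The unadjusted p was under 0.05 for no member and for 1.03%, 1.71% and 1.32% of genes, and DESeq2, which called 0.00355%, 0.0989% and 0.00709% of genes, called 0 members. Lhx1os itself was at 5.42 in that average (log2, unadjusted p = 0.00172) with an edgeR adjusted p of 0.9999, and DESeq2 called it (adjusted p = 1.27e-09). Member differences in that average were 0.21 for Chat, -0.02 for Slc18a3, 0.03 for Slc5a7, -0.17 for Ache, -0.05 for Slc10a4, 0.10 for Agrn and 0.12 for Calca. With the block, the edgeR fit put Chat at 0.19 (standard error 0.10, adjusted p = 0.9999). A difference of Chat between Lhx1os probes and LacZ probes was not detectable here.

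A transcript could be recovered by Lhx1os probes if it shared sequence with Lhx1os. The longest annotated transcript of each member was therefore compared with the 3 annotated Lhx1os isoforms of 524, 589 and 599 nt. Other transcripts of the members were not compared. The longest exact match on the same strand, to which an antisense probe could pair, was 10 to 12 nt in the 7 members with a match of at least 10 nt, and each probe has 20 nt. The longest match to the opposite strand, where the 2 RNAs could pair, was 13 nt in Agrn, and 13.25% of genes had one as long. These stretches are shown for Chat on the same strand and Agrn on the opposite strand, in capitals throughout because all their bases match.
Chat: AAGAAAGAAAG
Agrn: GCTTGAGGACAGC

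Other genes of the pathway were taken from 9 lists with 134 genes, of which 95 were tested. Without the block, edgeR called 0 in ODD, 1 in EVEN and 1 in LacZ against Input. The first was Chrna3, a nicotinic acetylcholine receptor subunit, with 10.3 and 10.5 CPM in Input and 3.98 and 5.39 in EVEN. Its difference was -1.15 (standard error 0.26, adjusted p = 0.0498). In ODD it was at -0.94 and in LacZ at -1.05, not called. The second was Syp, synaptophysin of the vesicle membrane, with 77.9 and 75.2 CPM in Input and 49.6 and 42.7 in LacZ. Its difference there was -0.73 (0.16, adjusted p = 0.0388). In ODD Syp was at -0.61 and in EVEN at -0.62, not called. DESeq2 called Chrna3 lower in EVEN and LacZ, and Syp lower in every pull-down. For both edgeR calls the called group and Input do not overlap. Both calls were lost on leaving out any 1 of the 8 libraries (-1.39 to -0.95 for Chrna3 and -0.85 to -0.63 for Syp).

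With the block, 5 list genes were called higher and 15 lower of 95 after ODD capture, against 4 and 14 after EVEN capture and 4 and 14 after LacZ capture. Over all genes, the higher calls were 12.6%, 12.8% and 12.7% and the lower calls 6.55%, 6.41% and 7%. Of 9 tested acetylcholine receptors, 2, 4 and 3 were called lower and 0 higher, with medians of -0.45, -0.57 and -0.48. Of 19 tested genes of vesicle filling and release, 5, 4 and 4 were lower and 2, 2 and 1 higher, with medians of -0.39, -0.39 and -0.38. Slc18a3 and Slc10a4, the members that act at the vesicle, had the same sign as these medians but were not called.

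Among the 15 tested genes that organise the neuromuscular junction, 4, 2 and 5 were called lower and 0, 1 and 0 higher with the block. Dag1, dystroglycan, which binds agrin, was lower by -1.20 in ODD, -1.23 in EVEN and -1.18 in LacZ (edgeR adjusted p of at most 0.00208). Utrn, the dystrophin relative utrophin, was higher in EVEN by 0.90 (edgeR adjusted p = 0.0251).

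Of 19 tested genes of choline and acetyl-CoA supply, 2, 1 and 2 were called higher and 2, 1 and 1 lower with the block, against the 12.6% to 12.8% and 6.41% to 7% of all genes that also stand beside the other lists. Acly, which makes cytosolic acetyl-CoA, stood at -0.18, -0.16 and -0.22, and Gde1, a glycerophosphodiester phosphodiesterase, at -0.20, -0.25 and -0.17, none called. Of 5 tested relatives and anchors of acetylcholinesterase, 2, 2 and 1 were lower and 1, 0 and 1 higher. Nlgn3, a neuroligin with a cholinesterase-like domain, was lower in ODD (-0.72, edgeR adjusted p = 0.0312) and EVEN (-0.81, adjusted p = 0.0218). In LacZ it was at -0.615 and just missed the call (edgeR adjusted p = 0.0533). Nlgn2 was at -0.29, -0.38 and -0.27, not called.

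None of the 12 tested transmitter genes of other neurons, the 10 transcription factors of cholinergic genes or the 4 calcitonin-family genes was called in either fit. Among the calcitonin family, Calcrl, the CGRP receptor chain, had 30.7 and 11.2 CPM in Input and Crcp, a receptor component, had 25.01 and 36.6. The aromatic amino acid decarboxylase Ddc was at 0.14 in ODD with the block, and the factors Mnx1 and Ldb1 at -0.09 and 0.11. Of the 2 tested relatives of Slc10a4, Slc10a3 was lower in EVEN with the block (-1.25, edgeR adjusted p = 0.0245) and Slc10a7 was at 0.15. Without the block Slc10a3 was at -0.69 in ODD, -1.25 in EVEN and -0.61 in LacZ, none called. The antisense RNA of the locus, Gm2990, had 3.63 and 11.1 CPM in Input and was not called, at 0.14, 0.09 and -0.53 with the block.

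Cplx2, a complexin, which acts at vesicle fusion, is named after its values were seen. It had 197 and 295 CPM in Input and 329 and 337 in LacZ, but 4253 and 625 in ODD and 3689 and 975 in EVEN. Every ODD and EVEN library lay above every Input and LacZ library, and ODD and EVEN overlap each other. edgeR without the block gave 3.31 in ODD (adjusted p = 0.108) and 3.24 in EVEN (adjusted p = 0.119), and with it 2.80 (adjusted p = 0.0481) and 2.84 (adjusted p = 0.0429). Without the block, leaving out the first ODD library lowered the ODD value from 3.31 to 1.34. Leaving out the first EVEN library lowered the EVEN value from 3.24 to 1.98. Its longest same-strand match to Lhx1os was 11 nt, and 63.1% of genes had one as long. Low-complexity sequence made up 14.0% of its transcript, a share that 1.25% of genes reached.

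The genes whose pattern over the 8 libraries was most like each member were found by the correlation of log2(CPM + 1), as a description over libraries that share experiments and depth. They were Grik1 (r = 0.992) and Hdac10 (0.991) for Chat, Rtn4rl2 (0.998) and Ccn3 (0.993) for Slc18a3, and Arhgap26 (0.997) and Jak1 (0.996) for Slc5a7. For Ache they were Mapk10 (0.990) and Nhs (0.985), and for Slc10a4 Gm24265 (0.989) and Cav2 (0.987). For Agrn they were Vps8 (0.980) and Cluh (0.975), and for Calca Lrrc2 and Sms (both 0.986). Between members, Slc18a3 and Slc10a4 had r = 0.96 while Chat and Slc18a3 had 0.704.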

How the data were processed

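RNA-seq counts per Ensembl gene and FPKM values were deposited for 8 libraries of total RNA, made with a stranded kit that depletes ribosomal RNA, per the labels' protocols. The submitters' processing notes name cutadapt 3.2, Bowtie2 2.4.2, Picard, HTSeq 0.13.5 and GRCm38, with no role or order, and the strand setting of the counting is not given in the sources used. Each deposited FPKM value equalled the deposited count divided by length and column total (largest relative difference 6.66e-14). Gene lengths in bases were deposited beside them, and 54741 of 55471 matched the merged exons of GENCODE M21.

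Counts were tested with edgeR 4.0.16 (R 4.3.3): quasi-likelihood, all 8 libraries, TMM, filterByExpr, two-sided, Benjamini-Hochberg over 16524 genes, threshold 0.05. It was tested on simulated data. CPM used TMM-scaled totals. The labels call the replicate number a batch and describe 2 independent experiments, so numbers pair libraries (correlation of deviations 0.517 to 0.719 over 6 pairs of groups, 16524 genes). Alternatives were that block, the block with GC trend removed (spline of 5 degrees of freedom), RLE, DESeq2 1.42.0, no filter, limma 3.58.1 on log2(FPKM + 1) and log2(FPKM + 0.1), and leaving out each library. The interaction fit and the leave-one-out runs of the block fit and the motor neuron marker sum without members were added after seeing the data. Low-complexity bases were masked with dustmasker of BLAST+ 2.17.0.

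Members and gene lists were chosen with earlier results of these data known. List genes were named if called without the block, at most 4 a list, otherwise the 2 of highest Input FPKM. Genes called only with the block were not named for that call, so the named genes are not the full set of block calls. A floor is 3 counts, and floors cover counting error only. Of the genes that rule and the marker lists gave, 2 are not reported here.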

Additional observations from a re-analysis of the deposited data

Results flagged for a closer look

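Agrn was the 1 member whose change in the pull-downs over Input differed between the 2 experiments by the interaction test. That test has 1 Input library in each experiment and does not measure the spread between Input libraries. On the log2 scale the mean change of the 3 pull-downs was -0.33 in experiment 1 and 0.78 in experiment 2, and the 2 means of within-experiment CPM ratios differ by 1.11. The counts of Agrn were between 3025 and 12130 in every library. Input went from 500 to 340 CPM between the experiments while each pull-down went up. The 7 glial markers summed to 1122 and 282 CPM in the same 2 Input libraries. They also fell in each pull-down, from 831 to 224 CPM in LacZ, 894 to 226 in ODD and 865 to 236 in EVEN. Their part in the difference was not tested.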

How the results depend on the processing

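The members called in ODD, EVEN and LacZ against Input were 0, 0 and 0 without the replicate block, 1, 1 and 1 with the replicate block and 2, 2 and 2 with the replicate block and GC trend removed. RLE, DESeq2, no filter, limma and the fits without the block and without 1 library called none. With all 8 libraries the block changed the call of no other member than Chat. Without Input replicate 1 the block fit also called Agrn higher and Slc10a4 lower in all 3 comparisons with Input, and without Input replicate 2 it called Agrn lower in LacZ. List genes called went from 0, 1 and 1 to 20, 18 and 18 with the replicate block, 32, 30 and 31 with GC removed too, 6, 7 and 6 without the filter and 3, 4 and 3 by DESeq2. limma on log2(FPKM + 1) called 0 in EVEN and 0 in LacZ, and on log2(FPKM + 0.1) 0 in EVEN. Without 1 library the count was 0 to 1 in each comparison with Input. Against LacZ, 1 list gene (Cplx2) was called without the filter and 0 otherwise.

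Some values that were near 0 without the block turned sign in other fits. Slc5a7 in EVEN moved away from 0 with GC removed too, where it was called lower. The cause of these changes was not tested. Slc5a7 in EVEN against Input was -0.019 with RLE, -0.035 with DESeq2, -0.032 without the filter, -0.030 with the replicate block, -0.56 with GC removed too, -0.041 by limma on log2(FPKM + 1) with or without a filter and -0.052 on log2(FPKM + 0.1). Ache in LacZ against Input was -0.011 without the filter. Against LacZ, the average of both Lhx1os captures was 0.0060 for Slc18a3 and -0.0029 for Slc5a7 with the replicate block, and by limma Slc5a7 was -0.043 on log2(FPKM + 1) with or without a filter and -0.061 on log2(FPKM + 0.1).

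Leaving out 1 library without the block leaves a group from 1 experiment only, and that library is assumed to vary like the others. For ODD against Input the ranges over the 8 fits were -0.15 to 1.74 for Chat, -0.65 to 0.16 for Slc18a3, -1.39 to 0.97 for Slc5a7, -0.69 to 0.30 for Ache, -0.69 to 0.13 for Slc10a4, -0.081 to 0.57 for Agrn and -0.90 to 0.56 for Calca. For EVEN against Input the ranges over the 8 fits were -0.069 to 1.90 for Chat, -0.64 to 0.16 for Slc18a3, -1.15 to 1.05 for Slc5a7, -0.54 to 0.16 for Ache, -0.75 to 0.047 for Slc10a4, -0.065 to 0.54 for Agrn and -0.94 to 0.61 for Calca. For LacZ against Input the ranges over the 8 fits were -0.22 to 1.62 for Chat, -0.70 to 0.18 for Slc18a3, -1.16 to 0.98 for Slc5a7, -0.38 to 0.36 for Ache, -0.66 to 0.14 for Slc10a4, -0.11 to 0.46 for Agrn and -0.98 to 0.47 for Calca. For the average of both Lhx1os captures against LacZ the ranges over the 8 fits were -0.34 to 1.11 for Chat, -0.35 to 0.42 for Slc18a3, -0.62 to 1.11 for Slc5a7, -0.48 to 0.24 for Ache, -0.24 to 0.18 for Slc10a4, -0.12 to 0.36 for Agrn and -0.21 to 0.48 for Calca.

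Depth limits Calcb, with at most 8 counts in a library, and 2 libraries a group limit all members.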
